A study of Mus musculus with 8 samples.

Results

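Bhlhe40 and Bhlhe41 encode DEC1 and DEC2, the paired bHLH-Orange repressors of the circadian clock, and their accessible chromatin was examined in skeletal muscle with and without induced loss of Bmal1. Every region that the deposited table assigns to either gene was taken, which gave 21 of 489637 regions, 3 for Bhlhe40 and 18 for Bhlhe41. The series holds 8 ATAC-seq libraries (sequencing of DNA cut by a transposase where chromatin is open) from mouse gastrocnemius, a mostly fast-fibre calf muscle, at 6 months of age. All 8 samples carry the genotype Cre+:iMSBmal1 fl/fl. The 4 samples of the Vehicle group received vehicle and the 4 of the iMSBmal1KO group received Tamoxifen, the drug that activates an inducible Cre, so that the drug and the knockout cannot be told apart. The labels name neither the promoter that drives Cre nor the time of day of collection. They do not say whether the samples of a group are separate animals, so the p-values measure only the spread between these samples. Each library was made from 50000 nuclei of whole muscle, in which fewer cells of a type and less open chromatin per cell cannot be told apart.

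DEC1 and DEC2 are transcription factors of the basic helix-loop-helix family that bind E-boxes, the DNA sites also bound by the BMAL1:CLOCK activator. BMAL1:CLOCK activates both DEC genes through E-boxes in their promoters, and the DEC proteins in turn repress targets of BMAL1:CLOCK, which makes them a feedback limb beside the PER and CRY repressors. Both genes also respond to signals outside the clock, hypoxia among them, and DEC proteins have been linked to the regulation of muscle regeneration. Whether the chromatin of these genes differed between muscle with and without Bmal1 is the question this comparison addresses.

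In RefSeq (assembly GRCm38.p6) Bhlhe40 lies on the plus strand of chromosome 6 from 108660629 to 108666925, a length of 6297 bases. Bhlhe41 lies on the minus strand of the same chromosome from 145858243 to 145865420, a length of 7178 bases. The table names them ENSMUSG00000030103 and ENSMUSG00000030256 and states no build, and its positions are given here as listed, each stop being the first base after the region. Of the genes matched between the table and RefSeq, 99.9% had a transcript overlapping the RefSeq gene. The RefSeq promoter table held an entry for Bhlhe41 and none for Bhlhe40, so the promoter of Bhlhe40 was not searched for E-boxes. The stretch below is shown because it holds an E-box, the kind of site that BMAL1:CLOCK and the DEC proteins bind. It runs along chr6:145865560-145865670 of GRCm38.p6, minus strand, 5′ to 3′, upstream of the RefSeq start and of the outermost Bhlhe41 transcript in the table, and the capitals mark the E-box.
Bhlhe41: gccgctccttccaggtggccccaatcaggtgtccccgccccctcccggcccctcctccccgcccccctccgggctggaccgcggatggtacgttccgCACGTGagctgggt

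The 111 bases printed are 74.8% G and C. The E-box CACGTG, a palindrome that reads the same on both strands, occupies positions 145865568 to 145865573, and its first base lies at -153 from the RefSeq start. It falls inside the deposited region from 145865548 to 145865606. CACGTG occurred in 7.17% of the 32544 RefSeq promoters of the same length (250 bases before to 50 after each start). The related letters CACGTT, searched on both strands, did not occur in the Bhlhe41 window and were found in 4.71% of promoters. AGGTCA, the core letters read by the ROR and REV-ERB receptors, searched the same way, did not occur in that window and were found in 16.2% of promoters. A match of letters describes the sequence only.

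The values are the authors' scaled signal, in which a read is worth a fixed amount in each library. The libraries held between 4.31 and 29.5 M reads (M, mega) within regions. Vehicle replicate 4 was the shallowest library, with 24.9% of regions at 0 and 16.5% of its reads on the mitochondrial chromosome, against 1.11% to 5.51% in the other libraries. Over the tested regions it had a Pearson's r of 0.80 to 0.85 with each other library on the log2 scale, against 0.90 to 0.94 among the remaining 7. The changes at both genes are therefore given with and without it. Of all regions 124901 had enough signal to be tested with limma, and 110 of them, or 0.0881%, differed at an adjusted p under 0.05 (39 higher, 71 lower in iMSBmal1KO). In 5.48% of tested regions the values of the groups did not overlap.

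The summed signal over the regions of Arntl, the gene of BMAL1, was 2688, 2248, 2557 and 1942 in Vehicle and 3023, 3421, 3154 and 3315 in iMSBmal1KO. All iMSBmal1KO libraries lay above all Vehicle libraries, by 0.46 ± 0.14 on the log2 scale (SE, n = 4 per group; adjusted p = 0.374, limma). A sum over accessible regions does not measure the deletion of an exon, so it does not check the knockout. Summed signal of Npas2, which encodes a partner of BMAL1, rose by 1.32 ± 0.15 on the log2 scale (SE; adjusted p = 5.35e-04, limma). The fit over genes thus called this large change, which does not show how well smaller changes would be called.

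No region of Bhlhe40 or Bhlhe41 passed the test in either direction. Of the 21 regions 14 had enough signal to be tested, 3 of 3 for Bhlhe40 and 11 of 18 for Bhlhe41, and the count of calls among them was 0 with limma, at adjusted p from 0.568 to 0.986. At an unadjusted p under 0.05 the count was also 0, against 9.22% of all tested regions. The groups overlapped in all 14 tested regions. Over all tested regions 0.0881% passed the threshold and 5.48% had groups that did not overlap. Of the 14 log2 changes 9 were positive and 5 negative, but the median change over all tested regions was itself 0.12, and 10 of the 14 lay below it. The 3 changes at Bhlhe40 were all negative. At Bhlhe41 9 changes were positive and 2 negative, with a median of 0.10 and a range from -0.45 to 0.52.

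**Figure D1:**
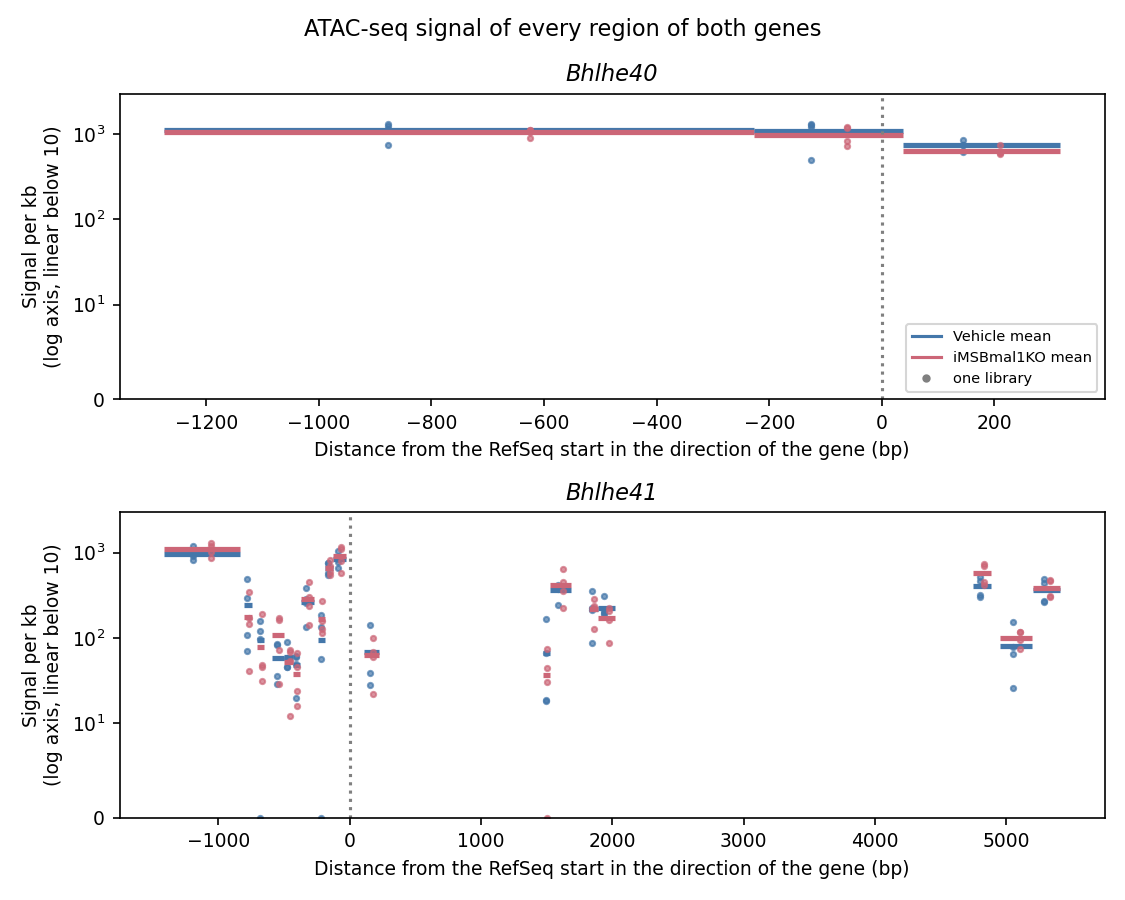
Signal per kb of each region of Bhlhe40 and Bhlhe41 (vertical log axis, linear below 10) by distance in bases from the RefSeq start, with bars for the group means and points for the libraries. The regions assigned to Bhlhe40 are 3 abutting ones around its start. Those assigned to Bhlhe41 are an upstream region of 575 bases, smaller regions close to its start and regions inside the gene body. Regions inside the bounds of either gene that the table assigns to another gene are not drawn.

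Both promoters were open in muscle of either group. Over regions within 1000 bases of an annotated start, Bhlhe40 had a signal of 1003 per kb over 1591 bases and Bhlhe41 a signal of 602 per kb over 1312 bases. The median of 22214 genes on this scale was 131 per kb. Per kb, Bhlhe40 stood at the 95.1 percentile and Bhlhe41 at the 85.2 percentile of these genes. Bhlhe40 was thus the more accessible of the pair per length of open promoter, as a description over all 8 libraries.

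All of the signal assigned to Bhlhe40 lay in 3 regions that the table places in the section TSS, the stretch around a transcription start. They abut and together run from 108659355 to 108660946, so they are not independent of each other. The largest, from 108659355 to 108660402 (1047 bases), lies before the RefSeq start and had a signal of 1189, 1364, 1293 and 782 in Vehicle and 1174, 1182, 948 and 1109 in iMSBmal1KO. Vehicle replicates 1 to 3 were above all iMSBmal1KO libraries and Vehicle replicate 4 was below all of them. That made a log2 change of -0.04 ± 0.19 (SE; 95% interval -0.43 to 0.35; limma, adjusted p = 0.953), and -0.22 without Vehicle replicate 4 (adjusted p = 0.758).

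The middle region of Bhlhe40, from 108660402 to 108660668 (266 bases), spans the RefSeq start. Its signal was 325, 344, 346 and 131 in Vehicle and 320, 313, 196 and 222 in iMSBmal1KO, from 42 to 748 reads per library. Vehicle replicates 1 to 3 stayed within a narrow band, Vehicle replicate 4 had the lowest value of all 8 libraries, and iMSBmal1KO split into replicates 1 and 2 near the Vehicle band and replicates 3 and 4 below it. The log2 change was -0.06 ± 0.29 (SE; 95% interval -0.66 to 0.55; limma, adjusted p = 0.959). Without Vehicle replicate 4 it was -0.40 (limma, adjusted p = 0.641).

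The third region, from 108660668 to 108660946 (278 bases), lies just inside the RefSeq gene. Its signal was 235, 206, 206 and 172 in Vehicle and 162, 173, 210 and 166 in iMSBmal1KO, and the groups overlapped through Vehicle replicate 4 and iMSBmal1KO replicate 3. With all libraries the log2 change came to -0.20 ± 0.20 (SE; 95% interval -0.62 to 0.21; limma, adjusted p = 0.740), and -0.28 without Vehicle replicate 4. Per kb, this region had a signal of 687, below the 1079 and 1033 of the upstream regions, as a mean over all 8 libraries.

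Summed over its regions, Bhlhe40 had a signal of 1748, 1914, 1845 and 1085 in Vehicle and 1656, 1667, 1354 and 1497 in iMSBmal1KO. Vehicle replicates 1 to 3 again lay above every iMSBmal1KO library and Vehicle replicate 4 below every one. The means were 1648 ± 382 and 1544 ± 149 (n = 4 each, SD), and the fit over 22224 genes put the log2 change at -0.06 ± 0.17 (SE; adjusted p = 0.906, limma). The 95% interval ran from -0.42 to 0.29, or a fold of 0.748 to 1.22. In the same fit 29 genes, or 0.13%, passed the threshold, and the groups did not overlap in 4.94% of genes. Against the median gene, whose log2 change was 0.11, Bhlhe40 stood at -0.17, and 25.0% of genes had a lower change than it.

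**Figure D2:**
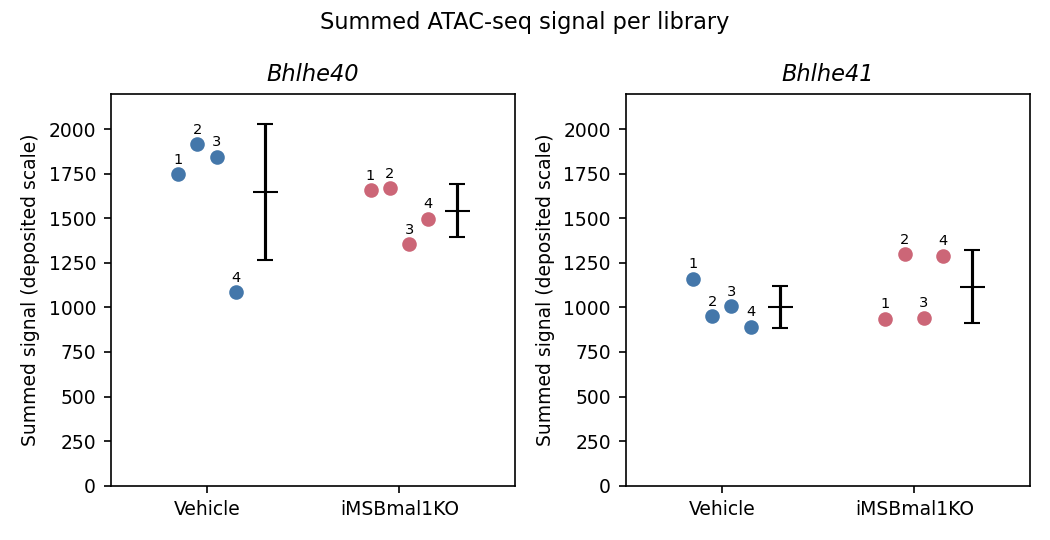
Summed signal of Bhlhe40 and Bhlhe41 in each of the 8 libraries (points), with the group means and SD. For Bhlhe40, Vehicle replicate 4 at 1085 lies below every iMSBmal1KO library and the other Vehicle libraries lie above them, whereas for Bhlhe41 the groups interleave.

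The result for Bhlhe40 depended on Vehicle replicate 4. Without it, the Vehicle sums ran from 1748 to 1914 and the iMSBmal1KO sums from 1354 to 1667, so the groups did not overlap, which held in the lower direction for 2.68% of genes. The log2 change was then -0.25 ± 0.12 (SE; 95% interval -0.50 to -0.01), a fold of 0.838, and 9.75% of genes had a lower change. The median gene stood at 0.05 in that fit. The limma test over all genes gave an adjusted p of 0.734, so the difference did not pass the threshold, which 43 genes, or 0.193%, passed in that fit. The 95% interval, which is not adjusted for the number of genes, excluded 0, as did that of the 2.54% of genes that were lower at an unadjusted p under 0.05. The first and the middle region of Bhlhe40 also ceased to overlap between groups without that library, in the lower direction, as did 3.74% of all tested regions. Whether the low value of Vehicle replicate 4 at Bhlhe40 comes from its depth or its mitochondrial share was not tested.

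Bhlhe41 had its signal spread over 18 regions in 3 sections. The 11 regions of the section TSS held 74.7% ± 1.36 of its signal in the Vehicle libraries against 74.4% ± 2.95 in the iMSBmal1KO libraries (n = 4 each, SD). The 3 regions of the section 3′ UTR exon held 14.7% ± 2.97 and 16.3% ± 2.12, and the 4 regions of the section TTS held 10.7% ± 3.64 and 9.30% ± 1.13. The promoter share ranged from 71.2% to 77.2% over the 8 libraries, with both extremes in iMSBmal1KO. The distribution of signal over the gene thus differed between groups by less than the spread between libraries.

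The region with the highest signal at Bhlhe41 lies upstream, from 145866256 to 145866831 (575 bases), and held 52.4% to 62.1% of the gene's signal. Its signal was 681, 555, 527 and 475 in Vehicle and 498, 753, 584 and 682 in iMSBmal1KO. iMSBmal1KO replicate 2 was the highest library and Vehicle replicate 4 the lowest, and the other values interleaved. This region's log2 change was 0.16 ± 0.19 (SE; 95% interval -0.23 to 0.56; limma, adjusted p = 0.781). It was 0.09 without Vehicle replicate 4, and leaving out any 1 library gave 0.07 (without iMSBmal1KO replicate 2) to 0.27 (without iMSBmal1KO replicate 1). At 1034 signal per kb it stood close to the upstream regions of Bhlhe40 per length.

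Close to the start of Bhlhe41, the region from 145865548 to 145865606 (58 bases) holds the E-box printed above. Its signal was 33.0, 31.9, 43.8 and 43.8 in Vehicle and 31.7, 41, 34.6 and 47.7 in iMSBmal1KO, from 14 to 74 reads per library. The groups covered almost the same range, and the log2 change was 0.02 ± 0.27 (SE; 95% interval -0.53 to 0.57; limma, adjusted p = 0.986). The interval corresponds to a fold of 0.691 to 1.49. Without Vehicle replicate 4 the change was 0.09. The neighbouring region from 145865448 to 145865548, next to the RefSeq start, had 76.7, 66.8, 105 and 84.4 in Vehicle and 79.6, 116, 58.4 and 110 in iMSBmal1KO. Its highest and its lowest value were both in iMSBmal1KO, and the log2 change was 0.10 ± 0.26 (SE; limma, adjusted p = 0.914), or 0.11 without Vehicle replicate 4.

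The 2 other tested regions of the Bhlhe41 promoter were weaker. The region from 145865694 to 145865787 had a log2 change of 0.08 ± 0.37 (SE), with overlapping groups, and of -0.20 without Vehicle replicate 4. The region from 145866165 to 145866223 had a signal of 17.1, 4.11, 28.6 and 6.25 in Vehicle and 9.84, 8.36, 2.39 and 20.1 in iMSBmal1KO, and a change of -0.36 ± 0.61 (log2, SE), the widest error among the 14 regions. It rested on 2 to 45 reads per library and was -0.60 without Vehicle replicate 4.

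Within the Bhlhe41 gene body, the largest positive changes were at the 3′ UTR exon. The region from 145860538 to 145860673 (135 bases) had a signal of 70.4, 43.2, 63.5 and 40.6 in Vehicle and 98.9, 61.9, 56.1 and 95.3 in iMSBmal1KO. iMSBmal1KO replicates 1 and 4 lay above all Vehicle libraries and replicates 2 and 3 among them. The log2 change was 0.51 ± 0.27 (SE; 95% interval -0.06 to 1.07), with the lowest adjusted p among the 14 regions (limma, 0.568), and 0.38 without Vehicle replicate 4.

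The region from 145860223 to 145860466 had 19.2, 37.0, 15.9 and 6.25 in Vehicle and 18.0, 28.4, 22.7 and 28.9 in iMSBmal1KO. Vehicle held both the highest and the lowest value, and the log2 change was 0.52 ± 0.40 (SE; limma, adjusted p = 0.674). Without Vehicle replicate 4, which contributed 2 reads there, it was 0.09, and without Vehicle replicate 2 it was 0.89. The third region of this section, from 145860013 to 145860215, had a log2 change of 0.10 ± 0.27 (SE), with overlapping groups, and of -0.03 without Vehicle replicate 4.

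The section TTS lies inside the RefSeq bounds of Bhlhe41, at the end of a shorter transcript that the table lists as Bhlhe41-202. Its region from 145863399 to 145863530 (131 bases) had a signal of 25.6, 24.7, 27.3 and 40.6 in Vehicle and 27.0, 29.3, 21.5 and 11.3 in iMSBmal1KO. The lowest value was iMSBmal1KO replicate 4 and the highest Vehicle replicate 4, with the other 6 close together. The log2 change was -0.45 ± 0.33 (SE; 95% interval -1.13 to 0.24; limma, adjusted p = 0.655). It was -0.29 without Vehicle replicate 4 and -0.17 without iMSBmal1KO replicate 4. The other tested regions of this section had log2 changes of 0.07 and 0.14, and of 0.34 and 0.22 without Vehicle replicate 4. The 7 untested regions of Bhlhe41 were 52 to 109 bases long, with group means of 1.98 to 9.57, too low for a test, and all 7 overlapped between groups.

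**Figure D3:**
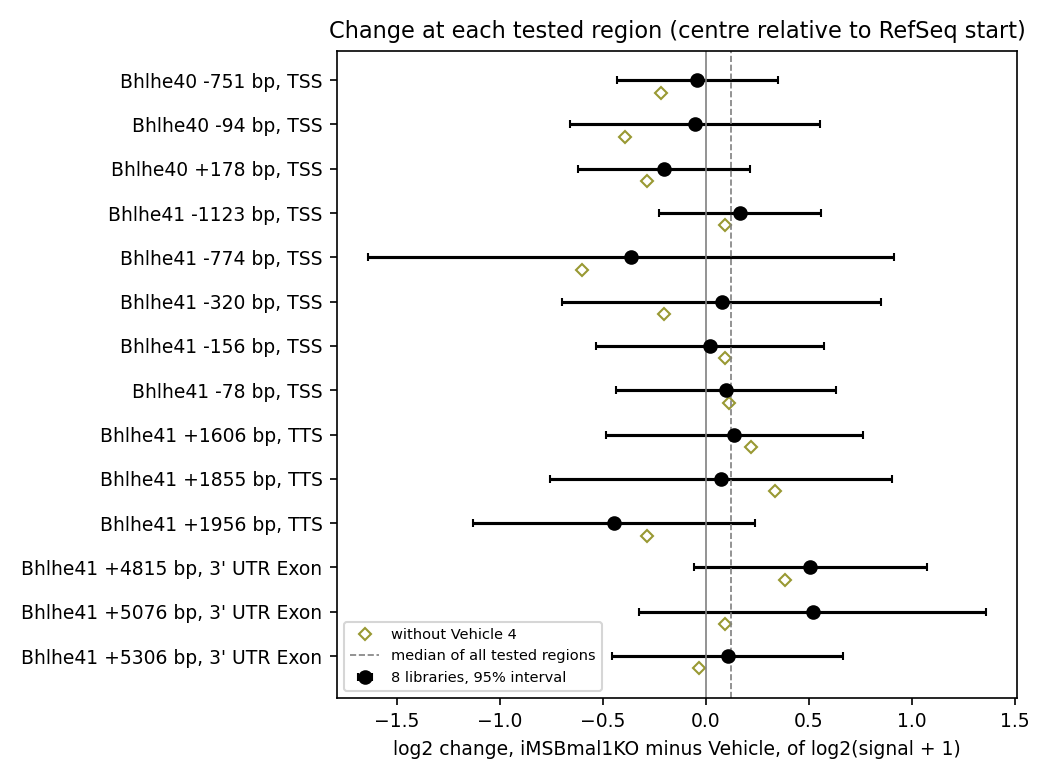
Log2 change (iMSBmal1KO minus Vehicle) with its 95% interval for each of the 14 tested regions. Diamonds show the change without Vehicle replicate 4. The dashed line marks the median of all tested regions with every library included, 0.12, which was 0.04 without Vehicle replicate 4. The interval of every region includes 0, and the widest belongs to the Bhlhe41 promoter region that starts at 145866165, labelled in the plot by its centre at -774 bases from the RefSeq start.

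Summed over its regions, Bhlhe41 had a signal of 1162, 951, 1006 and 891 in Vehicle and 937, 1300, 941 and 1291 in iMSBmal1KO. iMSBmal1KO replicates 2 and 4 were the highest of the 8 libraries, and replicates 1 and 3 lay among the Vehicle values. The means were 1003 ± 116 and 1117 ± 206 (n = 4 each, SD), and the fitted log2 change was 0.14 ± 0.16 (SE; adjusted p = 0.741, limma). The 95% interval ran from -0.18 to 0.47, or a fold of 0.880 to 1.39. Against the median gene the change was 0.04. Without Vehicle replicate 4 the fitted log2 change, not set against the median gene, was 0.09, and the groups still overlapped.

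The sums of both genes can be set against each other within a library. The log2 ratio of Bhlhe40 to Bhlhe41, taken on sums that are not corrected for length, was 0.59, 1.01, 0.88 and 0.28 in Vehicle and 0.82, 0.36, 0.52 and 0.21 in iMSBmal1KO. The groups overlapped, at 0.69 ± 0.32 and 0.48 ± 0.26 (SD, n = 4 each). Pearson's r of the 2 sums on the log2 scale was 0.29 over 8 libraries and -0.10 without Vehicle replicate 4, as a description of libraries that include both groups.

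**Figure D4:**
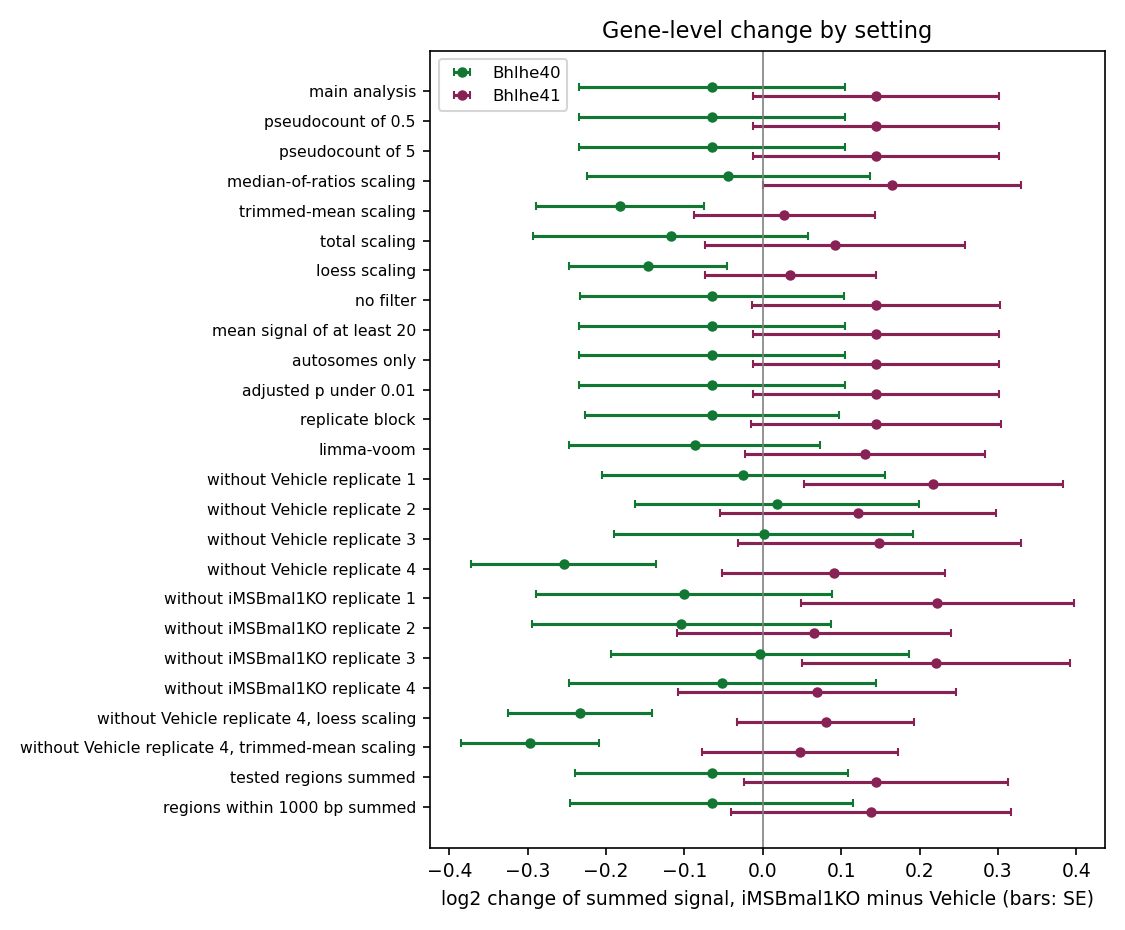
Log2 change of the summed signal of Bhlhe40 and Bhlhe41 under each processing setting, with bars for the SE. Bhlhe41 stays above 0 from 0.03 to 0.22, and Bhlhe40 runs from -0.30 to 0.02, with its lowest values where Vehicle replicate 4 is left out. No change is set against the median gene of its setting.

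Some other genes of the clock gave calls in the same fit. Of 18 clock genes, with 338 tested regions, 12 regions passed the threshold, 10 higher and 2 lower in iMSBmal1KO, and 78 had an unadjusted p under 0.05. Over all tested regions 0.0881% passed the threshold. The median log2 change of the list was 0.06 by region, against 0.12 over all regions, and -0.12 by gene, against 0.11 over all genes. Of the 12 regions 9 belong to Npas2 and 1 to Arntl, all higher. The 2 lower regions belong to Per2, a repressor of BMAL1:CLOCK, and Rora, a nuclear receptor that activates Arntl. Summed per gene, 1 of 18 passed the threshold (Npas2, higher), against 0.13% of all genes. For the HES and HEY repressors, the closest relatives of the DEC proteins by their Orange domain, 7 of 10 genes were in the table, and 0 of 34 tested regions passed with limma, 4 at an unadjusted p under 0.05, with a median of 0.17. For 14 genes whose proteins bind the DEC proteins or are linked to them, among them Hif1a, Stat3 and Myod1, 0 of 132 tested regions passed with limma, 10 at an unadjusted p under 0.05, with a median of 0.05. Over all tested regions 9.22% had an unadjusted p under 0.05, beside 78 of 338, 4 of 34 and 10 of 132 here.

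Markers of the cell types in muscle are given for the same libraries. The summed signal of 7 fast-fibre genes (Ckm, Acta1, Myh4 and others) ran from 9724 to 17043 in Vehicle and from 13572 to 16118 in iMSBmal1KO. That of 6 slow-fibre genes was far lower, 957 to 1195 and 1129 to 1180, although sums over genes of unequal length are not levels. Satellite-cell genes ran from 2145 to 2622 and 2599 to 3112, fibro-adipogenic genes from 515 to 731 and 546 to 784, endothelial genes from 1392 to 1867 and 1468 to 1773, and leukocyte genes from 399 to 694 and 428 to 558. Vehicle replicate 4 had the lowest sum of all 8 libraries for the fast-fibre, slow-fibre and satellite-cell lists and the highest for the leukocyte list. Of these 6 lists 0 regions passed the threshold with limma, and 1 gene, in the fibro-adipogenic list, was at 0 in a library. At an unadjusted p under 0.05 the counts were 20 of 122 regions for fast fibre, 5 of 25 for slow fibre, 5 of 38 for satellite cells, 2 of 15 for fibro-adipogenic cells, 2 of 27 for endothelium and 2 of 5 for leukocytes. Over all tested regions 9.22% had such an unadjusted p and 0.0881% passed the threshold. Their median log2 changes by region, in that order, were 0.36, 0.04, 0.36, 0.38, 0.03 and 0.50, against 0.12 over all regions. Summed per gene, the medians were 0.15, 0.04, 0.16, -0.001, 0.03 and -0.09, against 0.11 over all genes. The part of these cell types in the values of Bhlhe40 and Bhlhe41 was not tested.

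The genes whose summed signal followed Bhlhe40 most closely over the 8 libraries were Hlx (Pearson's r = 0.978), Mavs (0.972), Nisch (0.970), Ccdc9 (0.969) and Iffo2 (0.965). Without Vehicle replicate 4 these were 0.956, 0.930, 0.913, 0.919 and 0.917, and the genes then ranked 12, 31, 51, 42 and 46, so none stayed among the 5 closest. For Bhlhe41 they were Gfod2 (0.976), Kcnb2 (0.966), Bglap2 (0.958), Mia3 (0.952) and Sfxn3 (0.941), which ranked 2, 8, 20, 30 and 12 without Vehicle replicate 4. They are the highest of 22224 genes over 8 points that share depth and scaling, and are a description only.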

How the data were processed

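The authors deposited one table with a signal value per region and library, which is a scaled coverage: 98.3% to 99.8% of non-zero values were whole multiples of 1 step per library (tolerance 0.02 reads), which gave the read equivalents. Not every value was whole, so the planned fallback for a signal was used in place of a count test. The submitters' processing notes name Partek, Bowtie2, MACS2 and DESeq2 and the builds mm10 and GRCm39, with no role; read shifting and removal of duplicates are not given in the sources used here. Of the regions 41.3% abut another.

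Regions with at least 0.762 reads per M read equivalents (M, mega) in 4 libraries and 15 reads in all were tested with limma-trend (limma 3.58.1, R 4.3.3; robust empirical Bayes, group as the only term, all 8 libraries) on log2(signal + 1), with Benjamini-Hochberg adjustment over all tested regions or genes and a threshold of 0.05. The log2 changes are on that scale, which understates changes of low regions. Each gene was summed over its regions. The code was tested on simulated data with a set variability, the same for every region and library, and with no outlying library. There 77% of the 4-fold region changes and 9% of the 2-fold ones were called, and 98% and 56% for genes. Alternatives covered the pseudocount, scaling, filter, chromosomes, threshold, replicate block, voom, merged regions, the regions summed and each library left out.

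Members and gene lists were chosen with earlier results of these data known. Regions named were, for each gene, the one with the highest signal, tested regions within 1000 bases of a start, and the 4 with the smallest unadjusted p, and genes named were the 5 most correlated with each member and list genes with a region past the threshold. Flanking regions were chosen after their values were seen. Figures were drawn with matplotlib 3.10.9.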

Additional observations from a re-analysis of the deposited data

Results flagged for a closer look

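In 34 sets of values (17 measures in each group of 4 libraries), 2 held a library whose gap to the nearest other exceeded Dixon's 95% critical value for 4 samples. Chance flags about 5% of such sets, or 1.7 of 34. Both are Vehicle replicate 4, the shallowest library. In the middle Bhlhe40 region, from 108660402 to 108660668, its signal was 131 against 325 to 346 in the other Vehicle libraries (gap 0.902 of the range). In the Bhlhe41 region from 145863399 to 145863530 it was 40.6 against 24.7 to 27.3 (gap 0.833 of the range). The library was thus low at the one and high at the other.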

How the results depend on the processing

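Over 25 settings, 0 of 368 results for the 14 regions and the 2 gene sums passed the threshold (lowest adjusted p with limma 0.320), and 44 changed sign. The sum of Bhlhe41 kept a positive sign under every setting, but the median of all regions was itself 0.12 in the main analysis. With trimmed-mean and loess scaling, where that median was 0.01, the sum of Bhlhe41 was 0.027 ± 0.12 and 0.035 ± 0.11 (SE). The sum of Bhlhe40 ranged from -0.25 to 0.019 when 1 library was left out. It was positive without Vehicle replicate 2 (0.019) and near 0 without Vehicle replicate 3. Both combinations of settings without Vehicle replicate 4 were added after seeing the data, and the sum of Bhlhe40 was then -0.23 with loess and -0.30 with trimmed-mean scaling. With 1 library left out, the regions that changed sign ranged as follows, named by their start: 108659355 from -0.22 to 0.048, 108660402 from -0.40 to 0.075, 145860013 from -0.034 to 0.27, 145863530 from -0.28 to 0.34, 145863736 from -0.096 to 0.40, 145865448 from -0.035 to 0.29, 145865548 from -0.083 to 0.11, 145865694 from -0.20 to 0.36 and 145866165 from -0.77 to 0.12. Trimmed-mean scaling, which moved the median of all regions to 0.01, gave -0.011 (145860013), -0.040 (145863530), -0.018 (145865448), -0.094 (145865548) and -0.036 (145865694). Loess scaling, also with a median of 0.01, gave -0.070 (145860013), -0.036 (145863736), -0.076 (145865448), -0.14 (145865548) and -0.042 (145865694). Total scaling gave -0.031 (145865548) and limma-voom -0.17 (145865694). Merging abutting regions gave -0.22 for the run of 145863399 and 145863530, whose separate changes were -0.45 and 0.07. Regions merged into a run each count among the 368 results with the same value. Without Vehicle replicate 4, loess gave -0.10 (145860013) and -0.26 (145865694), and trimmed-mean scaling -0.076 and -0.25. The cause of the sign changes outside the merged run was not tested.

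Deviations of same-numbered libraries correlated at -0.06, 0.14, 0.02 and 0.02, within the range of -0.19 to 0.25 for other pairs. These values cannot show whether the samples are paired. The replicate block left 0 member regions past the threshold. It changed the calls over all regions from 110 to 100 and over all genes from 29 to 116. Calls over all regions were 162 with a pseudocount of 5, 277 with trimmed-mean scaling, 342 with loess or voom, 195 with no filter and 36 at an adjusted p under 0.01, and, with 1 library left out, 32 (Vehicle replicate 1), 41 (Vehicle 3), 281 (Vehicle 4), 43, 39 and 57 (iMSBmal1KO 2, 3 and 4), within 1.5 times of 110 for the others. Lower calls made up 252 of 342 with loess and 80 of 109 with total scaling, against 71 of 110, whereas without Vehicle replicate 2 higher calls outnumbered lower ones (83 and 58 of 141). Calls among clock genes ranged from 8 to 18. edgeR and DESeq2 count tests were not run, since whole reads were not fully recovered. With 14 to 74 reads per library in the E-box region of Bhlhe41, depth limits that result.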

Other observations

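Regions within 10 kb of each gene that the table does not assign to it were examined after the values were seen. Around Bhlhe40 15 were listed and 9 tested, 5 intergenic and 4 annotated to Gm17055 or 0610040F04Rik, the second of which lies inside the RefSeq bounds of Bhlhe40. Some of these regions lie in runs of abutting regions and are not independent of each other. Of the 9 log2 changes 8 were negative and 1 positive, with a median of -0.27, against 0.12 over all tested regions. None passed the threshold with limma, where the count of calls was 0, and 1 of 9 had an unadjusted p under 0.05, against 9.22% of all tested regions. That region, downstream of the gene from 108670940 to 108671193, had a signal of 274, 238, 257 and 197 in Vehicle and 173, 161, 208 and 176 in iMSBmal1KO, or -0.42 ± 0.20 on the log2 scale (SE; adjusted p = 0.536, limma). Its groups overlapped through Vehicle replicate 4 and did not overlap without it, as in the lower direction for 3.74% of all tested regions (-0.52; limma, adjusted p = 0.425). The same held for the region with the lowest change of the 9, from 108667803 to 108667976. Its log2 change was -0.49 ± 0.29 (SE), and -0.69 without Vehicle replicate 4 (limma, adjusted p = 0.494). The largest of the 9, from 108668270 to 108668936, had 864, 765, 599 and 775 in Vehicle and 691, 710, 712 and 580 in iMSBmal1KO. Its log2 change was -0.15 (adjusted p = 0.786, limma). Around Bhlhe41 18 were listed and 12 tested, 2 of them annotated to Gm43909, inside the RefSeq bounds of Bhlhe41, and 10 intergenic. Of these 7 were positive and 5 negative, with a median of 0.08, and 0 passed the threshold or had an unadjusted p under 0.05 with limma.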
